A study of Mus musculus with 10 samples.

Results

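The 39 genes described here carry out mitosis and cytokinesis: mitotic kinases with their cyclins and phosphatases (8 genes), spindle checkpoint genes (4), the anaphase-promoting complex (APC/C) and chromatid separation (5), centromere and kinetochore (5), the chromosomal passenger complex (3), spindle motors and assembly (3), chromosome structure (6), and the central spindle and cytokinesis (5). They were taken by gene symbol from a table of raw RNA-seq counts, in which all 39 were found among 24421 genes, and all 39 were among the 11846 genes with enough counts to be tested. Entry into mitosis is driven by Cdk1 bound to cyclin B, the spindle checkpoint holds the APC/C back until every kinetochore is attached, and the APC/C then marks securin and cyclin B for destruction so that chromatids separate and the cell divides. Many of these mRNAs are most abundant in G2 and mitosis, and their level in a bulk sample can therefore change with the share of cells at that stage. Erythroblasts pass through several rapid divisions while they build hemoglobin and condense their nucleus.

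RNA-seq was performed on R2 cells, erythroid progenitors sorted from bone marrow (BM) as CD71+Ter119+ (the transferrin receptor and an erythroid surface antigen), about 100000 cells per mouse. All mice were irradiated BoyJ recipients of BM from RosaCreERT2 donors, in which a ubiquitously expressed Cre is switched on by tamoxifen, and tamoxifen was given to all of them, controls included, in 2 rounds of 5 daily doses of 1 mg. Cells were taken 8 weeks after transplantation. Donor BM of 4 genotypes was compared: Ddx41+/+ Trp53+/+ (3 mice, replicates 10, 11 and 12), Ddx41+/- Trp53+/+ (2 mice, 32 and 34), Ddx41+/+ Trp53+/- (3 mice, 22, 23 and 24) and Ddx41+/- Trp53+/- (2 mice, 46 and 47). Ddx41+/- was made from a floxed allele after transplantation and Trp53+/- was constitutive. The sort named no marker of donor origin, so recipient cells that survived irradiation would be counted too. Each library came from 1 recipient, and since the labels give no donor, the p-values measure the spread between recipients.

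Libraries held 7866648 to 20283930 counts, and Ddx41+/- Trp53+/+ replicate 34 was the shallowest. The genotypes could be seen in the counts: *Ddx41* was at 21.9 to 26.6 CPM (read counts set to a common library size by edgeR's TMM scaling) in the 6 Ddx41+/+ mice and at 12.5 to 16.5 CPM in the 4 Ddx41+/- mice (log2 fold change −0.70, standard error (SE) 0.108, edgeR quasi-likelihood adjusted p = 0.0173 over both Trp53 genotypes), and *Trp53* was at 57.4 to 68.1 CPM in Trp53+/+ and 40.3 to 46.2 CPM in Trp53+/- mice (−0.48, SE 0.069, adjusted p = 0.00355). Markers of late erythroblasts summed to 46622 to 52939 CPM over the 10 mice. Neutrophil markers summed to 5037 to 8640 CPM, with none of 12 called in any comparison of single genotypes (background 0.0422% to 0.912%). Their sums varied between mice of the same genotype. They were 5368 to 8640 CPM in Ddx41+/+ Trp53+/+, 6303 to 8498 CPM in Ddx41+/- Trp53+/+, 6028 to 8482 CPM in Ddx41+/+ Trp53+/- and 5037 to 8639 CPM in Ddx41+/- Trp53+/- mice.

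The 39 genes were highly expressed in R2 cells of every genotype. Together they took 2.65% to 3.04% of all counts of a library. *Mki67* alone, which encodes Ki-67, the protein that coats mitotic chromosomes and keeps them apart, took 0.989% to 1.15%. Per kb of the longest annotated transcript (GENCODE M21), the median of the 39 genes was 115 CPM per kb against 4.95 CPM per kb for all tested genes with a length, and each of the 39 was above the latter. *Mki67* stood at 1072 ± 59.1 CPM per kb (SD, n = 10 mice over all genotypes), apart from *Ccnb2*, encoding cyclin B2, at 445 ± 25.6 CPM per kb and *Ube2c*, encoding the ubiquitin-conjugating enzyme of the APC/C, at 434 ± 30.0 CPM per kb. The ranges of *Ccnb2* and *Ube2c* overlapped over the mice. At the low end were *Mad2l1* and *Ttk* of the spindle checkpoint at 20.3 ± 1.25 and 22.7 ± 2.12 CPM per kb and *Cdc23*, an APC/C subunit, at 21.7 ± 2.10 CPM per kb, which could not be placed in order beyond their spread. The order depends on the length: per kb of all exons, *Mki67*, *Ccnb2* and *Ube2c* were still highest, and *Cdc23*, *Ttk* and *Cdc25c* were lowest.

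**Figure D1:**
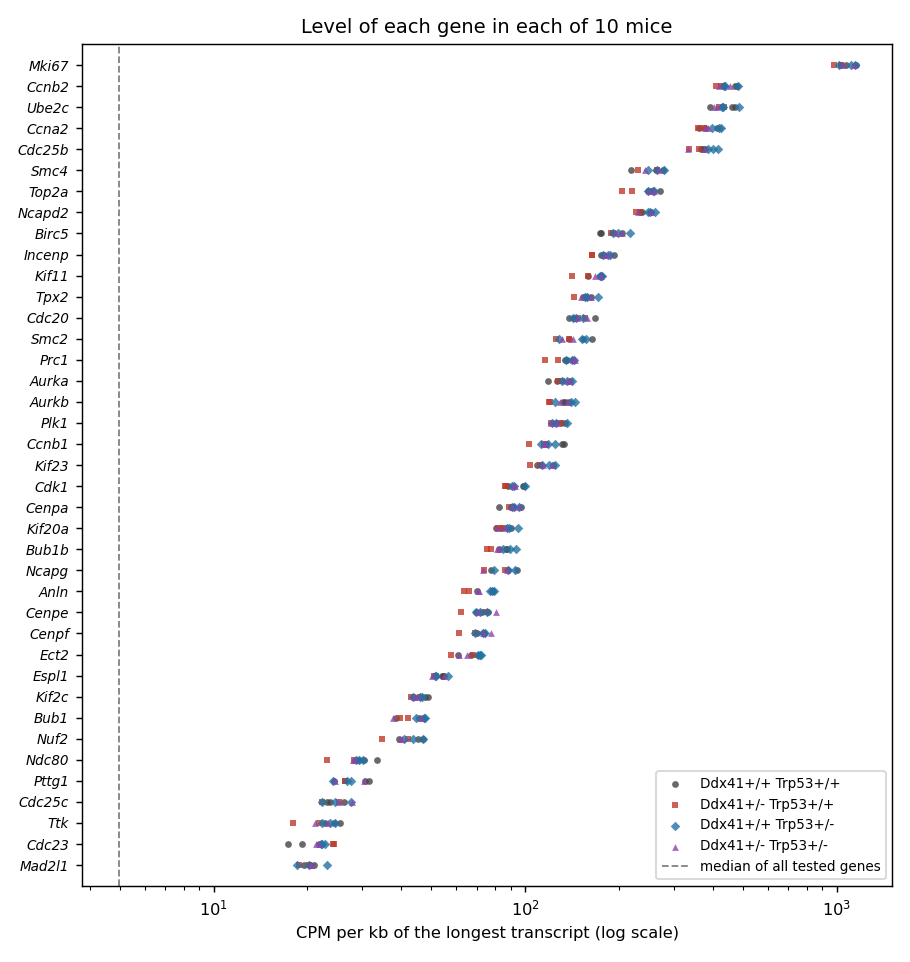
Level of each of the 39 genes in each of 10 mice, in CPM per kb of the longest transcript on a log axis, with 1 symbol per mouse and genotype; the dashed line is the median of all tested genes (4.95 CPM per kb). Every gene lies to the right of the line in every mouse, and symbols of the 4 genotypes lie close together for each gene.

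In CPM, *Mki67* was at 10409, 10761 and 11571 in Ddx41+/+ Trp53+/+ mice, 10367 and 9883 in Ddx41+/- Trp53+/+ mice, 10216 to 11492 (median 11217) in Ddx41+/+ Trp53+/- mice, and 10580 and 11401 in Ddx41+/- Trp53+/- mice. *Ccnb2* was at 723, 735 and 661, then 649 and 628, then 736, 666 and 672, and then 643 and 696 CPM in the genotypes in the same order. Both genes were lower in the 2 Ddx41+/- Trp53+/+ mice than in every Ddx41+/+ Trp53+/+ mouse, and overlapped between the Ddx41 genotypes with Trp53+/-. *Ube2c* was at 1013, 1030 and 857, 919 and 950, 1064, 947 and 936, and 887 and 906 CPM in that order. *Mad2l1*, which encodes the checkpoint protein that sequesters the APC/C activator, was at 147, 158 and 154, 152 and 142, 174, 140 and 153, and 155 and 156 CPM. *Ttk*, whose kinase starts checkpoint signaling at unattached kinetochores, was at 65.3, 72.9 and 69.7, 62.5 and 51.4, 67.9, 64.0 and 70.4, and 60.7 and 66.8 CPM. For *Ube2c* and *Mad2l1* the mice of the Ddx41 genotypes overlapped with Trp53+/+, whereas the 2 Ddx41+/- mice were below for *Ttk*, with replicate 34 far below the rest.

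The 39 genes varied little between mice of the same genotype. The SD of log2 CPM within genotypes had a median of 0.075 over the 39 genes, from 0.047 for *Incenp* to 0.16 for *Pttg1*, against 0.19 over all tested genes and 0.087 over the 1916 tested genes above 100 CPM on average. Between the lowest and the highest of the 10 mice, the difference ran from 1.13-fold for *Espl1* to 1.45-fold for *Ndc80*. *Espl1* encodes the protease separase and *Ndc80* a microtubule-binding kinetochore subunit. On the log2 scale the median difference was 0.313 over the 39 genes and 0.661 over all tested genes. It was 0.295 over the tested genes above 100 CPM, slightly less than over the 39.

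Promoters of genes transcribed in G2 and mitosis often carry a pair of short elements, and the promoters of the 39 genes were read from a table of RefSeq sequence on GRCm38.p6, in which 31 of the 39 genes were matched. Not matched were *Aurkb*, *Ccna2*, *Kif20a*, *Cdc23*, *Tpx2*, *Smc4*, *Cdc25c* and *Incenp*. A cell cycle genes homology region (CHR), the element bound by the DREAM and B-MYB-MuvB complexes, was searched as TTTGAA or TTCGAA and the CCAAT box, bound by NF-Y, as CCAAT, both on either strand; matches to the pair of motifs can share at most 1 base. In the window from 250 bases before to 50 bases after the start, 25 of 31 promoters (80.6%) held a CHR, against 19.4% of 27025 promoters, and 24 (77.4%) held a CCAAT box, against 37.9%. Both motifs were in 22 (71%) of the 31 promoters and in 7.7% of all promoters. In the last 100 bases before the start the shares were 25.8% against 6.29% for the CHR, 64.5% against 19.6% for the CCAAT box, and 32.3% against 3.83% for at least 2 CCAAT boxes. Both motifs were in these 100 bases in only 6 (19.4%) of the 31 promoters and in 1.17% of all promoters. A match is a description of letters and not of binding. The 100 bases before the start are shown 5′ to 3′ on the strand of the gene for genes named below, with motif matches in capitals. The first are promoters with a CHR there:
*Top2a* (chr11:99024190-99024289, minus strand): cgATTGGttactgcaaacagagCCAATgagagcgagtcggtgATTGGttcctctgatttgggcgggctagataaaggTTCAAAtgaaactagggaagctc
*Cdc20* (chr4:118437344-118437443, minus strand): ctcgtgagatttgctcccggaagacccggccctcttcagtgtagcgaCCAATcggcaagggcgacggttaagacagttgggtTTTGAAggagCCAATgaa
*Kif11* (chr19:37376282-37376381, plus strand): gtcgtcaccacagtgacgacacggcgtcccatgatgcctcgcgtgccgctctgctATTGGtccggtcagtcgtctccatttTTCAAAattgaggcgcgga
*Mki67* (chr7:135716380-135716479, minus strand): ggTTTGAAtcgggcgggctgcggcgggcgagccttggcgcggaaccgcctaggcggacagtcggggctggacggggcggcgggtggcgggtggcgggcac
In this stretch *Top2a* holds 3 CCAAT boxes and *Cdc20* 2, *Kif11* holds 1, and *Mki67* holds a CHR and no CCAAT box. The next hold CCAAT boxes but no CHR in the last 100 bases:
*Ccnb2* (chr9:70421555-70421654, minus strand): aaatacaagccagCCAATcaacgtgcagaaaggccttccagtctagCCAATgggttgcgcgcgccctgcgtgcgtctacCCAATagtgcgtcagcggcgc
*Ect2* (chr3:27153879-27153978, minus strand): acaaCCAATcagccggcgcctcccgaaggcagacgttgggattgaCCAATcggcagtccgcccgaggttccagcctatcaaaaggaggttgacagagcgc
*Cenpf* (chr1:189688087-189688186, minus strand): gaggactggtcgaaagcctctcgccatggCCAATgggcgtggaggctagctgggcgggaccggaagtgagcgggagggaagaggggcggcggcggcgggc
*Prc1* (chr7:80294351-80294450, plus strand): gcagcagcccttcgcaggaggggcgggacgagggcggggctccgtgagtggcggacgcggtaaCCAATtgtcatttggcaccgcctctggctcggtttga
*Cdc25b* (chr2:131186848-131186947, plus strand): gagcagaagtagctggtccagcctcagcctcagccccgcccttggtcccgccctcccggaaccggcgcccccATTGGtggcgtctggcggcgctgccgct
*Ccnb2* holds 3 CCAAT boxes here, *Ect2* 2, and *Cenpf*, *Prc1* and *Cdc25b* hold 1 each. *Anln* and *Birc5* are shown because they hold neither motif in these 100 bases:
*Anln* (chr9:22389207-22389306, minus strand): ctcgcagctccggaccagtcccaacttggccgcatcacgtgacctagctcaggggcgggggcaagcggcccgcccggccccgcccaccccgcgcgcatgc
*Birc5* (chr11:117849137-117849236, plus strand): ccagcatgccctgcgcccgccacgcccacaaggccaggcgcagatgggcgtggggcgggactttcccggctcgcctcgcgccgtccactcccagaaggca
Among the 2 genes, *Anln* holds 2 CHR matches elsewhere in the longer window and *Birc5* none.

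To see whether Ddx41 heterozygosity is accompanied by another level of mitotic mRNAs, Ddx41+/- R2 cells were first compared with Ddx41+/+ R2 cells with Trp53+/+. None of the 39 genes passed the test at an adjusted p under 0.05 and a fold change over 1.5 (edgeR quasi-likelihood test over all 10 mice), where 0.54% of all tested genes did, and DESeq2 called none either. For every one of the 39 genes the 95% confidence interval of the fold change lay inside 1.5-fold in either direction, which held for 51.3% of all tested genes. The median SE was 0.076 over the 39 genes and 0.18 over all tested genes, which include many of lower level. Here and below, such shares do not set the 39 genes beside genes of like level. The widest bounds were log2 −0.49 for *Ttk* and 0.51 for *Cdc23*. In bulk RNA, fewer cells in mitosis and less RNA per cell cannot be told apart.

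Within those bounds most values were slightly low. Values were below 0 for 34 of 39 genes, against 49.7% of all tested genes, and their median log2 fold change was −0.10 (6.58% lower) against 0.0010 over all tested genes. At an unadjusted p under 0.05 were 12 of 39 genes, against 9.64% of tested genes, and 13 with DESeq2, against 6.52%. Here and below, shares with DESeq2 are over 16135 genes, without the filter on low counts. They include genes with few counts and are not comparable with the shares by edgeR. Of the 12 by edgeR, 11 were lower (background 4.12%) and *Cdc23* was higher (background 5.52%). The mice did not overlap for 18 genes (background 24.9%), with both Ddx41+/- mice below every Ddx41+/+ mouse for 17 (background 12.1%) and above for *Cdc23* (background 12.9%). Much of this rested on 1 library: replicate 34 was the lowest of all 10 mice for 21 of the 39 genes. It was above the median of the 10 mice for 4, against 51.3% of tested genes. Without replicate 34, 29 genes had a log2 fold change below 0, the median was −0.07, and 2 genes were at an unadjusted p under 0.05, against 6.95% of tested genes. Ddx41+/+ replicate 11 was above the median for 35 of 39 genes, against 49.5% of tested genes. Without replicate 11, 5 genes were at an unadjusted p under 0.05, against 9.16% of tested genes. Without replicate 32 the median was −0.15. The median of all tested genes moved to between −0.012 and 0.0050 when any of these 5 mice was left out. The part of depth, lowest in replicate 34, was not tested.

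**Figure D2:**
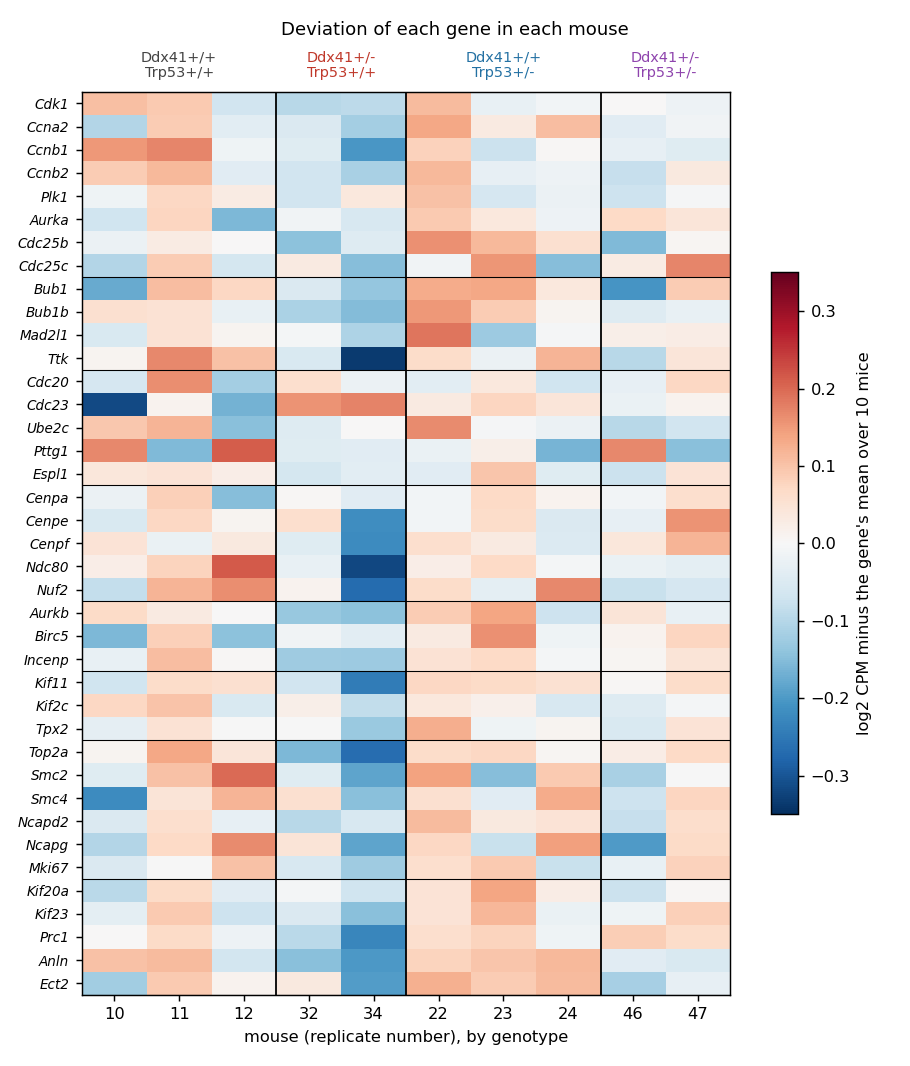
Deviation of log2 CPM from the mean over 10 mice for each of the 39 genes (rows, grouped by role) in each mouse (columns, grouped by genotype); blue is below and red above the mean, and colors saturate at 0.35. The column of replicate 34 is blue for nearly all genes, *Cdc23* being a red exception, and the columns of replicates 11 and 22 are mostly red.

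The gene with the smallest p was *Top2a*, which encodes topoisomerase IIα, the enzyme that untangles sister chromatids (chromosome 11, 98992943 to 99024189, minus strand, GRCm38). Its level was 1292, 1411 and 1323 CPM in Ddx41+/+ Trp53+/+ mice and 1152 and 1068 CPM in Ddx41+/- Trp53+/+ mice, without overlap. The log2 fold change was −0.27 (SE 0.066, 95% interval −0.41 to −0.13, adjusted p = 0.0794). With DESeq2 the adjusted p was 0.00934 and with no filter on low counts 0.0155, with a change below 1.5-fold in each, and without replicate 34, with 1 Ddx41+/- mouse remaining, the log2 fold change was −0.22 (SE 0.082, adjusted p = 0.600). All 6 genes of chromosome structure, *Top2a* included, had values below 0, with *Smc2*, a condensin ATPase, at −0.20 (adjusted p = 0.504) and its partner *Smc4* at −0.03 (adjusted p = 0.962).

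*Anln*, encoding anillin, the scaffold of the contractile ring (chromosome 9, 22332012 to 22389188, minus strand), was at 362, 364 and 322 CPM in Ddx41+/+ Trp53+/+ mice and at 304 and 293 CPM in Ddx41+/- Trp53+/+ mice. Its log2 fold change was −0.23 (SE 0.072, adjusted p = 0.243), and the mice did not overlap. *Prc1*, which bundles the microtubules of the central spindle (chromosome 7, 80294450 to 80316259, plus strand), was at 497, 520 and 490 CPM and at 465 and 423 CPM (−0.18, SE 0.069, adjusted p = 0.399). All 5 genes of the central spindle and cytokinesis had values below 0, down to −0.02 for *Kif20a*, the kinesin that carries the passenger complex to the midzone.

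*Cdc23* went the other way. Its product is a scaffold subunit of the APC/C (chromosome 18, 34630951 to 34651735, minus strand). It was at 71.7, 89.9 and 79.5 CPM in Ddx41+/+ Trp53+/+ mice and at 99.5 and 101 CPM in Ddx41+/- Trp53+/+ mice, with no overlap. Its log2 fold change was 0.32 (SE 0.094, adjusted p = 0.194). Of its exon bases, 13.4% overlap *Kif20a* on the opposite strand, and whether counting used strand is not given in the sources used here. The other genes of its group were at 0.02 for *Cdc20*, the APC/C activator, −0.05 for *Ube2c*, −0.12 for *Pttg1*, which encodes securin, and −0.09 for *Espl1*.

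The remaining groups are given by their values. Among 8 mitotic kinases, cyclins and phosphatases, 7 were below 0 (median −0.08), from *Ccnb1* (cyclin B1) at −0.22 to *Aurka*, the centrosomal Aurora kinase, at 0.01. Of the transcript stretches of 75 bases of *Ccnb1*, 35.2% also occur in pseudogenes, so that its count is uncertain. Without strand, overlap with an antisense neighbor also makes counts uncertain for *Kif20a* (29.3% of exon bases), *Ube2c* (22.8%), *Ncapg* (13.4%), *Cdc25c* (12.7%), *Ccna2* (12.5%), *Prc1* (11.1%) and *Plk1* (7.09%), besides *Cdc23*. All 4 checkpoint genes (median −0.13), 4 of 5 centromere and kinetochore genes (median −0.15), 2 of 3 passenger complex genes (median −0.16) and all 3 spindle genes (median −0.07) were below 0. *Ndc80* was at −0.27 (adjusted p = 0.330), *Ttk* at −0.27 (adjusted p = 0.377), *Aurkb*, the kinase of the passenger complex, at −0.17 (adjusted p = 0.484) and *Kif11*, the motor that pushes spindle poles apart, at −0.17 (adjusted p = 0.435). *Cenpa*, the centromeric histone, was at 0.0077 and *Birc5*, encoding the passenger survivin, at 0.04.

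**Figure D3:**
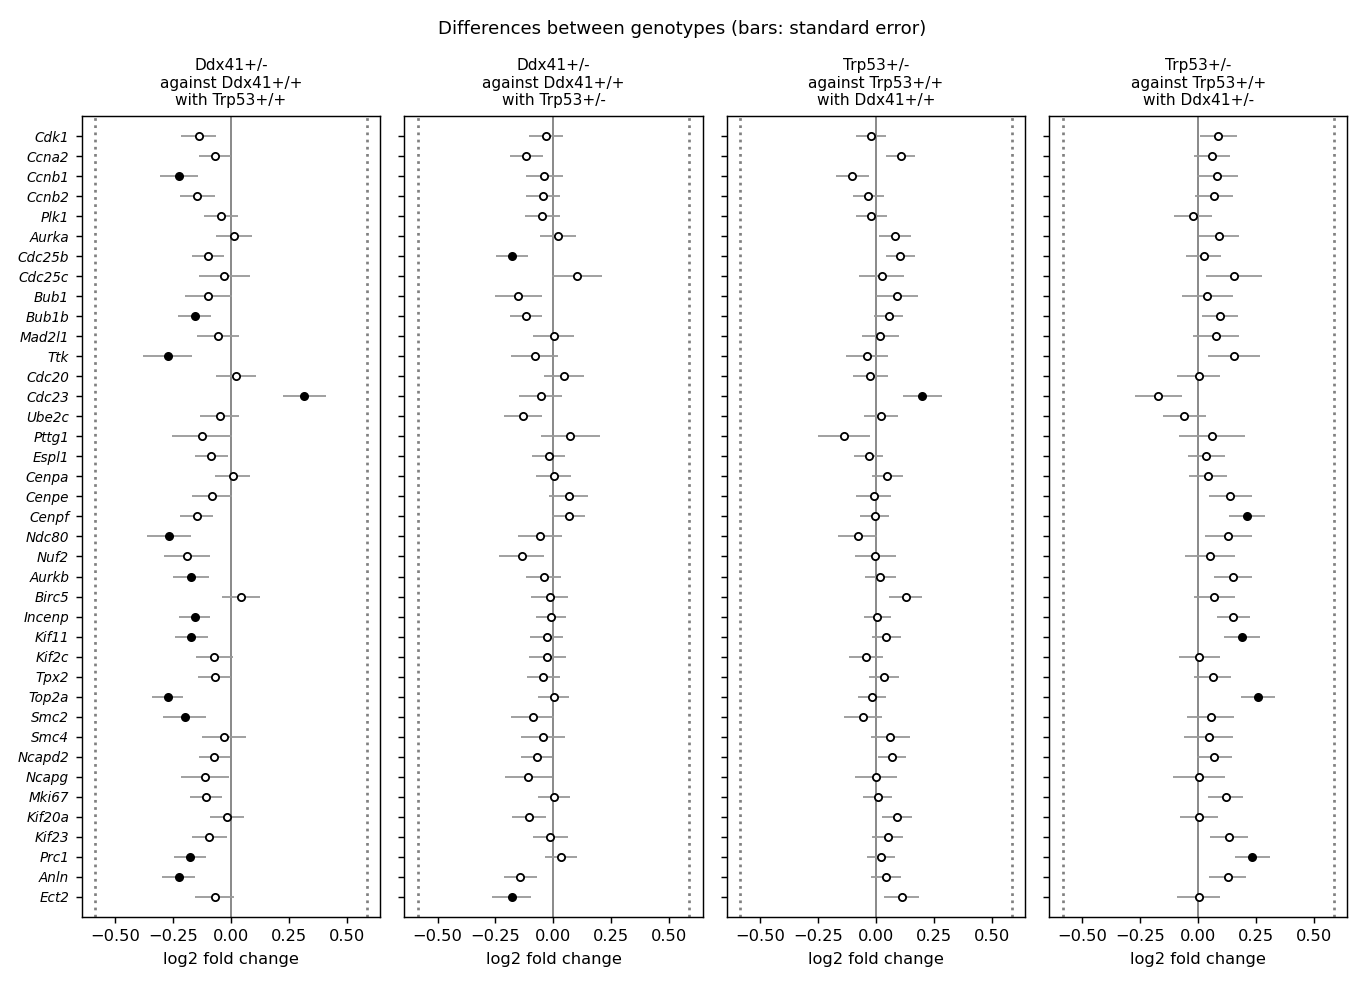
Log2 fold change (points) with its standard error (bars) of each of the 39 genes in the 4 comparisons of single genotypes; filled points have an unadjusted p under 0.05 and dotted lines mark a fold change of 1.5. No point reaches a dotted line, and points lie mostly left of 0 in the first panel and mostly right of 0 in the fourth, which share the 2 Ddx41+/- Trp53+/+ mice.

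With Trp53+/-, the comparison of Ddx41+/- with Ddx41+/+ mice had 2 and 3 mice that were not part of the first. Again none of the 39 genes was called, against 0.0422% of tested genes, DESeq2 called none, and all 39 intervals lay inside 1.5-fold (54.7% of tested genes). The log2 fold change was below 0 for 28 of 39 genes, against 51.2% of tested genes, with a median of −0.04 against −0.0050 over all tested genes. At an unadjusted p under 0.05 were 2 genes by edgeR (background 3.75%) and 2 by DESeq2 (background 2.31%). Those by edgeR were both lower (background 1.6% lower and 2.15% higher). The mice did not overlap for 10 genes (background 20%), and the Ddx41+/- mice were below every Ddx41+/+ mouse for all 10 (background 10.8%) and above for none (background 9.23%). Without Ddx41+/- replicate 46 the values split into 20 below and 19 above 0, with a median of −0.0011.

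The smallest p were those of *Cdc25b*, *Ect2* and *Anln*. *Cdc25b* encodes the phosphatase that activates Cdk1 at the G2/M boundary (chromosome 2, 131186949 to 131198497, plus strand). It was at 1282, 1241 and 1193 CPM in Ddx41+/+ Trp53+/- mice and at 1032 and 1154 CPM in Ddx41+/- Trp53+/- mice, without overlap (log2 fold change −0.18, SE 0.069, edgeR adjusted p = 1.00). With Trp53+/+ it was at 1132, 1171 and 1150 CPM against 1038 and 1112 CPM, again without overlap (−0.10, SE 0.069, adjusted p = 0.712). *Ect2* encodes the exchange factor that activates RhoA at the cleavage furrow (chromosome 3, 27097222 to 27153878, minus strand). Its level was 295, 288 and 292 CPM in Ddx41+/+ and 250 and 265 CPM in Ddx41+/- mice with Trp53+/- (−0.18, SE 0.084, edgeR adjusted p = 1.00), whereas with Trp53+/+ the mice overlapped, at 249, 289 and 273 CPM against 277 and 237 CPM. *Anln* was at 356, 360 and 364 CPM against 328 and 325 CPM with Trp53+/-, without overlap (−0.14, SE 0.071, edgeR adjusted p = 1.00).

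Of the 39 genes, 4 were lower in every Ddx41+/- than in every Ddx41+/+ mouse at either Trp53 genotype, against 1.75% of tested genes: *Anln*, *Cdc25b*, *Ndc80* and *Bub1b*, which encodes the checkpoint kinase BubR1. *Bub1b* was at 303 to 320 CPM in Ddx41+/+ and 277 and 286 CPM in Ddx41+/- mice with Trp53+/+, and at 310 to 342 CPM and 299 and 303 CPM with Trp53+/-. *Ndc80* was at 112 to 128 CPM and 88.6 and 108 CPM with Trp53+/+, and at 110.0 to 116 CPM and 108 and 109 CPM with Trp53+/-. Over both Trp53 genotypes in an additive model, *Anln* had the smallest p of the 39 genes (log2 fold change −0.18, SE 0.050, adjusted p = 0.230). In that model 33 of 39 genes were below 0, against 49.9% of tested genes, with a median of −0.07, and none was called, against 0.11% of tested genes. Both edgeR and DESeq2 had 10 at an unadjusted p under 0.05 (background 8.98% and 6.63%), and the 10 by edgeR were lower (background 3.93% lower and 5.06% higher). Without replicate 34, 3 genes were (7.43% of tested genes), and without Ddx41+/+ Trp53+/+ replicate 11 also 3 (7.18%).

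*Top2a* did not show in Ddx41+/- Trp53+/- mice what it showed with Trp53+/+. It was at 1342, 1350 and 1290 CPM in Ddx41+/+ Trp53+/- and 1307 and 1349 CPM in Ddx41+/- Trp53+/- mice (log2 fold change 0.00084, 95% interval −0.14 to 0.14). *Cdc23* was at 91.2, 94.1 and 91.8 CPM against 87.7 and 90.1 CPM, the Ddx41+/- mice being the lower (−0.06, SE 0.094). The difference between the Ddx41 effects with Trp53+/- and with Trp53+/+ was tested as an interaction: it was 0.27 for *Top2a* (SE 0.093, unadjusted p = 0.00956, edgeR adjusted p = 0.760) and −0.37 for *Cdc23* (SE 0.133, unadjusted p = 0.0129, edgeR adjusted p = 0.788). Neither passed, nor did any other of the 39 genes, against 0.0675% of tested genes. By edgeR 4 genes were at an unadjusted p under 0.05, against 5.01% of tested genes (2.3% higher and 2.7% lower). Besides *Top2a* and *Cdc23* they were *Prc1* (0.21) and *Cenpf* (0.21). DESeq2 also had 4, against 3.3%. Over the 39 genes the difference was above 0 for 27 (51.5% of tested genes below 0), with a median of 0.06. The interval reached past 1.5-fold only for *Cdc23*.

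**Figure D4:**
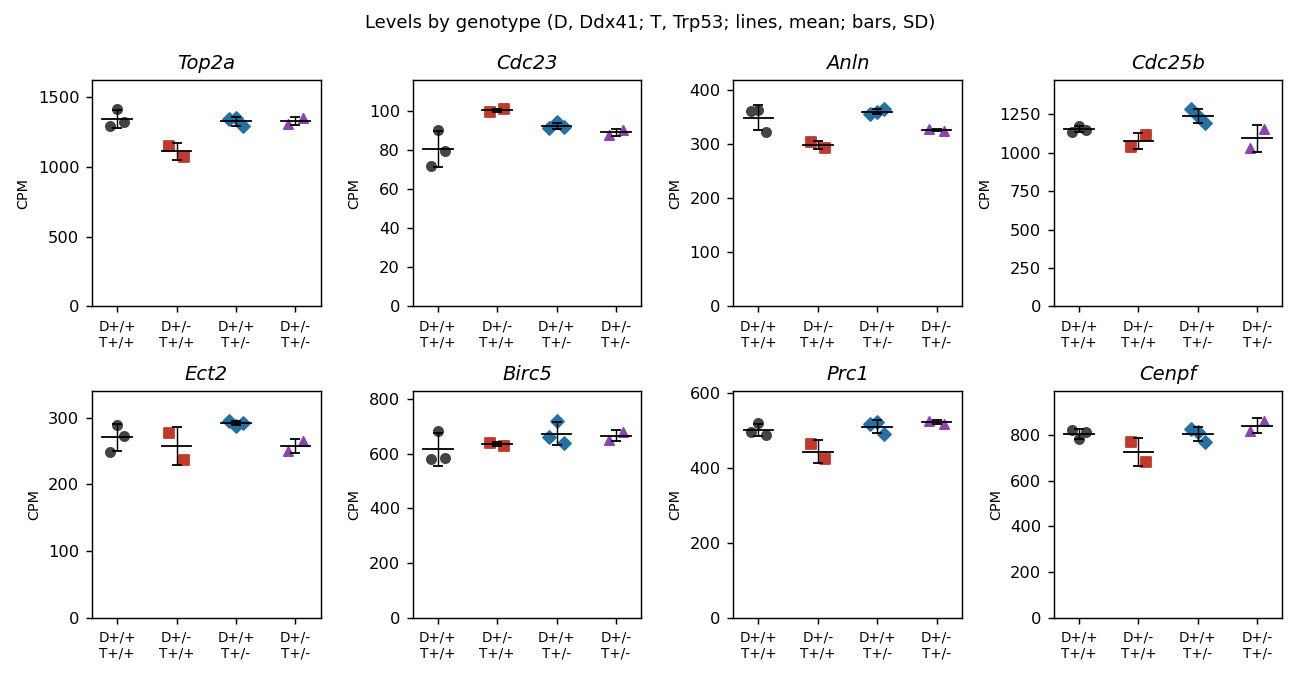
CPM in each mouse (points), mean (line) and SD (bars; n = 3, 2, 3 and 2 mice from left to right) for the 8 genes with the smallest p in the 4 comparisons of single genotypes; every axis starts at 0. *Top2a* is lowest in Ddx41+/- Trp53+/+ mice and near equal in the other genotypes, whereas *Cdc23* is highest there and *Anln* is lower in both Ddx41+/- genotypes.

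Loss of 1 Trp53 allele was compared in the same way. In Ddx41+/+ mice, which are the controls of the comparisons above, none of the 39 genes was called, against 0.912% of tested genes, nor by DESeq2, and all intervals lay inside 1.5-fold (57.2% of tested genes). The log2 fold change was above 0 for 24 and below 0 for 15 genes (49.9% of tested genes below 0), with a median of 0.02. *Cdc23* alone was at an unadjusted p under 0.05 by edgeR (background 9.44%, of which 5.42% higher and 4.02% lower). DESeq2 also had 1 gene (background 6.48%). For *Cdc23*, Trp53+/- mice at 91.2 to 94.1 CPM were above all 3 Trp53+/+ mice (0.20, SE 0.084, edgeR adjusted p = 0.438). Those mice did not overlap for *Cdc25b* either (0.11, SE 0.061, adjusted p = 0.641), and for no other gene (background 14.1%, of which 7.58% above and 6.53% below). *Birc5*, the third by p (chromosome 11, 117849251 to 117855743, plus strand), was at 579, 684 and 584 CPM in Trp53+/+ and 660, 721 and 638 CPM in Trp53+/- mice, which overlapped (0.13, SE 0.073, adjusted p = 0.627). In Ddx41+/- mice it was at 640 and 629 CPM with Trp53+/+ and at 651 and 680 CPM with Trp53+/-.

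In Ddx41+/- mice, Trp53+/- was compared with Trp53+/+ in 2 mice each, those with Trp53+/+ being replicates 32 and 34. None of the 39 genes was called, against 0.169% of tested genes, nor by DESeq2, and all intervals lay inside 1.5-fold (49.2% of tested genes). The log2 fold change was above 0 for 36 of 39 genes and below 0 for 3 (50.9% of tested genes below 0), with a median of 0.07 against −0.0045 over all tested genes. There were 4 genes at an unadjusted p under 0.05 by edgeR (background 5.41%) and 5 by DESeq2 (background 3.48%). The 4 by edgeR were all higher (background 2.79% higher and 2.63% lower). The mice did not overlap for 18 genes (background 37.3%), 16 above (background 18.8%) and *Cdc23* and *Ube2c* below (background 18.5%). Without replicate 34, 28 were above 0 and the median was 0.03, and without replicate 32 the median was 0.13.

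The smallest p there belonged to *Top2a* (0.26, SE 0.072, adjusted p = 0.349), *Prc1* (0.23, SE 0.075, adjusted p = 0.550) and *Cenpf* (0.21, SE 0.078, adjusted p = 0.799). *Prc1* was at 527 and 518 CPM in Ddx41+/- Trp53+/- mice and at 517, 523 and 491 CPM in Ddx41+/+ Trp53+/- mice, against the 465 and 423 CPM of Ddx41+/- Trp53+/+ mice. *Cenpf*, a large protein of the outer kinetochore (chromosome 1, 189640606 to 189688086, minus strand), was at 821, 782 and 814 CPM in Ddx41+/+ Trp53+/+, 771 and 682 CPM in Ddx41+/- Trp53+/+, 827, 812 and 768 CPM in Ddx41+/+ Trp53+/-, and 817 and 863 CPM in Ddx41+/- Trp53+/- mice. The levels of *Top2a*, *Prc1* and *Cenpf* with Ddx41+/- Trp53+/- thus overlapped with those of a Ddx41+/+ genotype. The 2 Ddx41+/- Trp53+/+ mice were the lowest of all 10 for *Top2a* and *Prc1*, and for *Cenpf* only replicate 34 was. Over both Ddx41 genotypes, 31 of 39 genes were above 0 (50.7% of tested genes below 0), with a median of 0.05. None was called (background 0.287%). None was at an unadjusted p under 0.05 by edgeR (background 11.2%, of which 6.18% higher and 5.01% lower) or by DESeq2 (background 8.19%).

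Summed over the 39 genes, the level was 29342 ± 938 CPM (SD, n = 3) in Ddx41+/+ Trp53+/+ mice, 27218 ± 987 CPM (n = 2) in Ddx41+/- Trp53+/+, 29819 ± 937 CPM (n = 3) in Ddx41+/+ Trp53+/- and 29158 ± 1280 CPM (n = 2) in Ddx41+/- Trp53+/- mice. The 2 Ddx41+/- Trp53+/+ mice, at 27917 and 26520 CPM, were below the other 8, which lay between 28253 and 30542 CPM. *Mki67*, at 9883 to 11571 CPM, made up a large part of each sum. Without it the 2 mice were at 17549.2 and 16637.3 CPM and the others between 17673.6 and 19325.5 CPM. In both sums replicate 32 lay only slightly below replicate 46.

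Other lists of genes for division and for S phase were compared in the same way. Other kinetochore and spindle genes were, like the 39, lowest in replicate 34 (median deviations of −0.12 and −0.15 on the log2 scale). For S phase genes the lowest median deviations were close together, in replicate 23 (−0.083) and Ddx41+/- Trp53+/+ replicate 32 (−0.080). For APC/C genes they were in replicate 46 (−0.060) and again replicate 32 (−0.058). By summed CPM, replicate 32 was the lowest mouse for S phase genes (11470 CPM) and for APC/C genes (2740.5 CPM). With Trp53+/+, the Ddx41+/- value was below 0 for 28 of 31 other kinetochore and checkpoint genes (median −0.11), 32 of 34 other spindle, condensin, cohesin and cytokinesis genes (median −0.12), 14 of 16 APC/C genes (median −0.08) and 27 of 32 S phase genes (median −0.12), against 49.7% of tested genes. None of the genes in these lists was called (background 0.54%). The lowest p in these lists belonged to *Ncaph*, a further condensin subunit, at −0.34 (adjusted p = 0.0720). Genes that control transcription of mitotic genes were closer to even, with 15 of 23 below 0 (median −0.02). With Trp53+/- the medians of the same lists were −0.02, −0.03, −0.06, −0.03 and −0.06. Among 24 tested CDK inhibitors, G1 cyclins and checkpoint kinases, 1 was called between the Ddx41 genotypes with Trp53+/+ (background 0.54%): *Cdkn1a*, which encodes the p53-induced CDK inhibitor p21, was at 6.75, 6.71 and 7.68 CPM in Ddx41+/+ Trp53+/+ and 16.6 and 15.6 CPM in Ddx41+/- Trp53+/+ mice (log2 fold change 1.20, edgeR adjusted p = 0.0153), and at 3.84 to 6.55 CPM in the 5 Trp53+/- mice. *Cdkn1a* was also called between the Trp53 genotypes in Ddx41+/- mice (−1.57, edgeR adjusted p = 0.00973, background 0.169%). *Ccng2*, encoding cyclin G2, was called between the Trp53 genotypes in Ddx41+/+ mice (0.59, edgeR adjusted p = 0.0293, background 0.912%). At 1.51-fold it was just above the limit of 1.5. *Cdkn1a* was high in both replicate 32 and replicate 34, which also had the lowest sums of the 39 mitotic genes (27917 and 26520 CPM). The median deviation of the 39 genes was −0.044 in replicate 32 and −0.13 in replicate 34. Their relation to *Cdkn1a* was not tested.

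**Figure D5:**
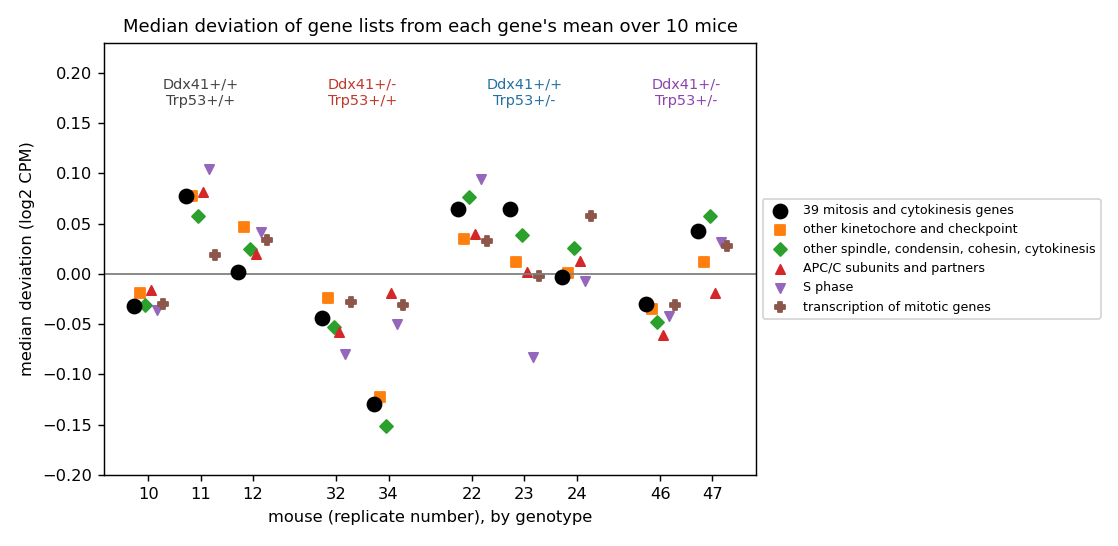
Median deviation of log2 CPM from each gene's mean over 10 mice, for the 39 genes (large black points) and 5 other gene lists, in each mouse. The 39 genes are lowest in replicate 34 (−0.13) and highest in replicate 11 (0.077), and the kinetochore and spindle lists lie beside them in both mice.

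Some marker RNA of other cells also differed between genotypes. B cell markers summed to 272 to 450 CPM in Ddx41+/+ Trp53+/+ mice, 423 to 602 CPM in Ddx41+/- Trp53+/+, 446 to 530 CPM in Ddx41+/+ Trp53+/- and 491 to 561 CPM in Ddx41+/- Trp53+/- mice. Of 12 such markers, 2 (*Ebf1* and *Cd79a*) were called in Ddx41+/- against Ddx41+/+ mice with Trp53+/+ (background 0.54%). In Trp53+/- against Trp53+/+ mice with Ddx41+/+, 6 were called (background 0.912%). None of the 12 was at 0 in any mouse. Macrophage markers, of which none was called, summed to 314 to 590 CPM, 377 to 477 CPM, 257 to 351 CPM and 396 to 509 CPM in the genotypes in the same order. With Trp53+/- all 10 had a log2 fold change above 0 in Ddx41+/- against Ddx41+/+ mice (median 0.52). Of these, 5 were at an unadjusted p under 0.05 (background 3.75%). With Ddx41+/+ all 10 were below 0 in Trp53+/- against Trp53+/+ mice (median −0.57, 8 at an unadjusted p under 0.05, background 9.44%). Of the 7 tested markers of early erythroid progenitors, 1, *Myb*, was called, in Trp53+/- against Trp53+/+ mice with Ddx41+/+ (0.84, edgeR adjusted p = 0.0159, background 0.912%). There, 5 of the 7 were above 0 and 2 below, 1 of these 2 at an unadjusted p under 0.05 by edgeR (background 4.02%). In Ddx41+/- against Ddx41+/+ mice, 6 of 7 were above 0 with Trp53+/+ (median 0.29, 49.7% of tested genes below 0). With Trp53+/-, 5 of 7 were (median 0.13, 51.2% below 0). None was called in either (background 0.54% and 0.0422%). The part of these and the other markers in the levels of the mitotic genes was not tested.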

How the data were processed

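Poly(A)-selected RNA of sorted R2 cells from 10 mice was sequenced by the authors on a HiSeq2500 with paired 75-base reads. The authors deposited raw counts of reads per gene symbol, without normalization, for 24421 genes. The submitters' processing notes name FastQC 0.11.7, HISAT2 2.0.5, featureCounts 1.5.2 and mm10, and the annotation and strand setting of the counting are not given in the sources used here. The paper and the labels name different TruSeq kits, the one in the labels being stranded. The authors' name for the table says that mice 35 and 45 were removed from it, and they were not analysed here.

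The count matrix was filtered with filterByExpr by genotype (11846 genes kept, 12575 removed) and scaled by TMM in edgeR 4.0.16 under R 4.3.3. Quasi-likelihood models took all 10 mice and gave each genotype its own mean, with 6 residual degrees of freedom before moderation. The additive comparisons used 1 term for Ddx41 and 1 for Trp53. Two-sided p-values were adjusted by Benjamini-Hochberg across every tested gene. A gene was called at an adjusted p under 0.05 and a fold change over 1.5 (interaction: adjusted p alone). The standard error was the absolute log2 fold change over the root of F, and 95% intervals used the t quantile of the moderated degrees of freedom. CPM used TMM-scaled library sizes, and log2 CPM a prior count of 2. Groups were called not overlapping where every mouse of one was below every mouse of the other. No pair of libraries agreed within counting noise, so each counted as 1 replicate. Depth was 7866648 to 20283930 counts per library, and each of the 39 genes had at least 348 counts in every library. Standard errors and intervals cover counting error and the spread between mice together.

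The genes and the other lists were chosen with earlier results of these data known. Values in every mouse are given for the 3 genes of smallest unadjusted p in each comparison of single genotypes and the 3 with the highest and the lowest level per kb. The other members named as examples, *Bub1b* and *Ndc80* among them, were chosen after their values were seen. From other lists, genes called or of smallest p were named. Positions are from GENCODE M21 on GRCm38 and promoters from RefSeq on GRCm38.p6. Alternatives were DESeq2 1.42.0, its size factors within edgeR, other filters on low counts, only the 2 genotypes compared, a likelihood ratio test, other call rules and each mouse left out. The procedure was tested on simulated data. Figures were drawn in Python 3.11.15 with matplotlib 3.10.9.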

Additional observations from a re-analysis of the deposited data

How the results depend on the processing

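None of the 39 genes was called in any of the 7 comparisons with DESeq2, with a likelihood ratio test, with edgeR using DESeq2's size factors, without the low-count filter, with 10 or more counts required of each mouse, with no limit on the fold change, or with any 1 of 10 mice left out, nor in fits of the 2 genotypes alone, which were made for the 4 comparisons of single genotypes. At an unadjusted p with the same fold limit the count stayed 0 in the comparisons of genotypes, and 4 genes passed for the interaction, which has no fold limit. Medians over the 39 genes kept their sign under all of these settings. Leaving out 1 mouse at a time, the median log2 fold change of Ddx41+/- against Ddx41+/+ ran from −0.15 to −0.072 with Trp53+/+ and from −0.06 to −0.0011 with Trp53+/-, and that of Trp53+/- against Trp53+/+ from 0.00055 to 0.05 with Ddx41+/+ and from 0.030 to 0.13 with Ddx41+/-. Where 1 mouse of a genotype remained, it was assumed to vary like the other genotypes. The cause of these shifts was not tested.

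Over all tested genes, calls depended more on the setting: in the first of these comparisons 64 genes were called, against 128 with DESeq2, 243 without the filter, 182 with the likelihood ratio test and 13 without replicate 34. The corresponding counts without the filter were 39 in place of 5, 250 in place of 108, and 67 in place of 20 in the other comparisons of single genotypes, and those with the likelihood ratio test were 9, 219 and 51.

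Fold changes near 0 changed sign for single genes when a mouse was left out. For Ddx41+/- against Ddx41+/+ with Trp53+/+, *Birc5* ran from −0.00026 to 0.13 and *Ect2* from −0.20 to 0.038. With Trp53+/-, *Birc5* ran from −0.054 to 0.035 and *Top2a* from −0.019 to 0.026. For Trp53+/- against Trp53+/+ with Ddx41+/+, *Cenpf* ran from −0.028 to 0.026, *Top2a* from −0.042 to 0.022 and *Anln* from −0.0096 to 0.074, and with Ddx41+/-, *Ect2* ran from −0.10 to 0.13 and *Cdc25b* from −0.051 to 0.10. With only the 2 genotypes compared, *Ect2* was at −0.0070 in the last of these comparisons. The other 495 values of the 8 genes under single settings kept their direction and stayed uncalled. Per kb of all exons in place of the longest transcript, levels were up to 2.33-fold lower, and all 39 genes were still above the median tested gene. No paired analysis was possible because the genotypes share no replicate numbers. With 2 mice in each Ddx41+/- genotype, small shifts shared by the 39 genes cannot be separated from differences between mice, and replicate 34 was both the shallowest library and the lowest for most of these genes.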
